A study of Gallus gallus with 6 samples.

Results

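PRDX1, PRDX6 and NQO1 encode 3 antioxidant and detoxifying enzymes of liver: a pair of peroxiredoxins and a quinone reductase. They were taken by gene symbol from the authors' table of differentially expressed mRNAs, which listed each of them on a single transcript, 3 of the 1480 rows. Any transcript of these genes that was not listed has no value here and is left out of the levels, ratios and sums below. The RNA came from livers of male Arbor Acres broiler breeders, killed after a fast. The immature group was 3 libraries, each a pool of RNA from 4 livers of chicks aged 1 day (12 livers in all). The mature group was 3 libraries, each of the liver of 1 rooster aged 40 weeks. Ribosomal RNA was removed before strand-specific libraries were made, and no treatment or genotype separated the groups.

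Each transcript carries 1 expression value per group, in FPKM (fragments counted per kilobase of a transcript and per fixed number of mapped fragments), which corrects for length and so allows levels of different genes to be set side by side. No value per library, read count or depth stands behind it in these tables. The difference between the groups therefore has no replicate check, no SD and no test, and pooling has averaged the spread between single chicks. Every row of the table had already been selected by the authors as changed: the smallest difference in it, in either direction, was 2.00-fold. That the 3 genes differed between the ages is thus part of how the table was made. What the values add is their direction, their size, their levels and the genes listed around them. Levels refer to RNA of whole liver tissue, in which fewer cells of a type and less RNA per cell cannot be told apart.

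Peroxiredoxins are thiol enzymes that reduce hydrogen peroxide and organic peroxides with a reactive cysteine. PRDX1 is the abundant cytosolic form whose oxidised cysteine is restored by thioredoxin. PRDX6 has a single conserved catalytic cysteine, is restored with glutathione through a glutathione transferase, and in mammals also reduces peroxidised membrane phospholipids and has a phospholipase A2 activity. NQO1 is a cytosolic flavoenzyme that uses NADH or NADPH to reduce quinones straight to hydroquinones, without the reactive semiquinone between them. In mammals all of these genes are described as targets of NRF2, the transcription factor that KEAP1 holds back until oxidants or electrophiles arrive.

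PRDX1 and NQO1 were lower in mature livers and PRDX6 was higher, so that the values of the peroxiredoxins went opposite ways as deposited. PRDX6 was close to level (0.039 on the log2 scale) when the groups were set to equal summed FPKM of the listed rows. It was at 0.47 when the row with the highest mature FPKM was left out of the sums, a choice made after seeing the data. PRDX1 (ENSGALG00000010243, chromosome 8, 20048297 to 20054607) stood at 519 FPKM in immature livers against 236 FPKM in mature ones, 2.20-fold lower. NQO1 (ENSGALG00000023437, chromosome 11, 18482724 to 18484568) stood at 210 FPKM in immature livers against 82.8 FPKM in mature ones, 2.53-fold lower. PRDX6 (ENSGALG00000003053, chromosome 8, 4284024 to 4316854) stood at 93.0 FPKM in immature livers against 208 FPKM in mature ones, 2.24-fold higher. On log2(FPKM + 1), mature minus immature, these differences were -1.14, -1.33 and 1.16. Coordinates are those of the deposited table, and whether they are on Galgal5, the build that the paper's methods name for mapping the reads, is not stated.

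**Figure D1:**
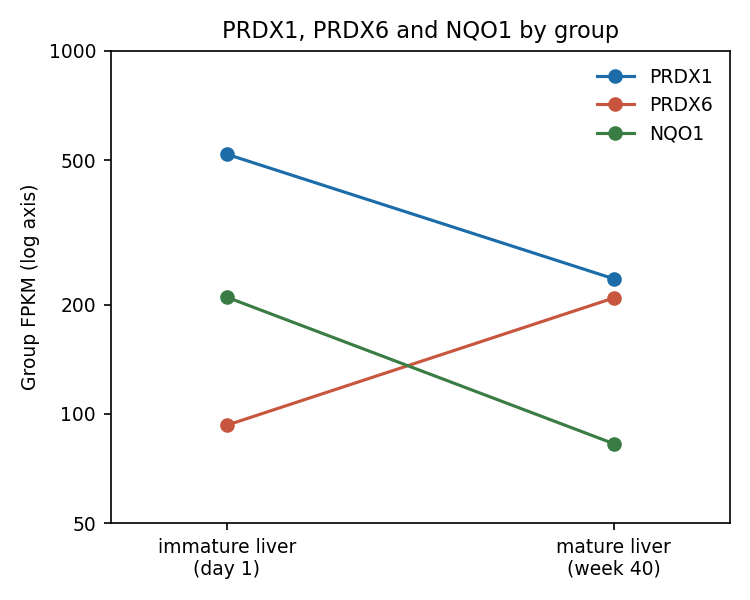
Group FPKM (log axis) of PRDX1, PRDX6 and NQO1 in immature and mature livers, 1 authors' value per group and no error. PRDX1 went from 519 to 236 and NQO1 from 210 to 82.8, while PRDX6 went from 93.0 to 208 and crossed NQO1.

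Of the 3 genes, 1 was higher and 2 were lower by at least 2-fold. Among all rows, 54.9% were at least 2-fold higher and 45.1% at least 2-fold lower, so this split is no result about the 3 genes. None of them reached a 4-fold difference, which 23.4% of rows did upwards and 15.9% downwards. Their differences were among the smaller ones of the table. Only 13.2% of the 812 higher rows had a smaller fold than PRDX6, 16.0% of the 668 lower rows had a smaller fold than PRDX1, and 33.1% a smaller fold than NQO1.

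Their levels, by contrast, were high at both ages. PRDX1 ranked 25th of 1480 in immature livers and 55th in mature livers. NQO1 moved from rank 56 to rank 114, and PRDX6 from rank 103 to rank 60. The median row of the table was at 3.25 FPKM in immature livers against 3.71 FPKM in mature ones. All of them thus lay above at least 92.3% of the listed transcripts in either group. PRDX1 led the others in both groups, whereas PRDX6 and NQO1 exchanged places; without values per library, the spread around this order is not known.

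The balance between the peroxiredoxins differed more than the level of either, which follows from their opposite directions as deposited. Under equal sums PRDX1 alone differed by -2.25 on the log2 scale, nearly as much as the PRDX1 to PRDX6 ratio (-2.30). The PRDX1 level was 5.58 times that of PRDX6 in immature livers but 1.13 times in mature ones. PRDX1 made up 84.8% of their summed FPKM in immature livers and 53.0% in mature livers. The sum itself was 612 FPKM in immature livers against 444 FPKM in mature ones, 0.726 times as high, or 0.333 times under equal sums. NQO1 was at 2.25 times the level of PRDX6 in immature livers but 0.397 times in mature ones. PRDX1 relative to NQO1 differed little between the groups, at 2.48 and 2.85. A ratio between genes within a group, unlike this sum, does not depend on how the groups were scaled to each other.

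That scaling matters most for PRDX6. The summed FPKM of the table were 123615 in immature and 269591 in mature livers. Of the mature sum 56.0% was the small nucleolar RNA SNORA73, listed among the mRNAs at 150944 FPKM. These sums cover only rows selected as changed, so setting them equal is an alternative scaling and not a normalization over all transcripts. With the groups set to equal sums, which shifts every mature value by -1.12 on the log2 scale, PRDX6 differed by 0.039, PRDX1 by -2.25 and NQO1 by -2.43. Under that scaling 32.1% of the rows past 2-fold in the whole table were higher, against 54.9% as deposited. With equal medians instead (a shift of -0.19) the differences were 0.96, -1.33 and -1.52. Each of these scalings lowers the mature values, so a row that was already lower could only move further down. That PRDX1 and NQO1 stayed past 2-fold lower was therefore fixed in advance. PRDX6 was past 2-fold higher only as deposited.

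The annotation in the table puts all of the genes under oxidoreductase activity, cytoplasm, protein binding, extracellular exosome and response to oxidative stress. The last of these terms was given to 8 rows among the 1264 with a readable annotation, PRDX1, PRDX6 and NQO1 included. Of these 8 rows 4 were higher and 4 lower in mature livers, beside 54.9% and 45.1% of all rows. This split is near that of all rows and is no result about the term. Besides PRDX6, the higher ones included HMOX1, the heme oxygenase, and MTF1, the metal-responsive transcription factor. HMOX1 stood at 101 FPKM in immature livers against 496 FPKM in mature ones, and MTF1 at 1.44 and 3.66 FPKM. Besides PRDX1 and NQO1, the lower ones were NDUFS8, a complex I subunit, at 25.0 and 8.96 FPKM, and PSIP1, a chromatin-bound coactivator, at 4.07 and 1.93 FPKM. The term antioxidant activity was shared by PRDX1, PRDX6 and the fatty acid-binding protein LFABP, listed at 2119 FPKM in immature livers against 5.09 FPKM in mature ones.

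Only 327 of the 1480 rows carried any KEGG term, so a listed gene of a pathway can lack its term. Glutathione metabolism (KEGG ko00480), the pathway that supplies the reductant of PRDX6, had 5 rows. Of these 2 were higher and 3 lower by at least 2-fold, beside 54.9% and 45.1% of all rows. The median log2 difference was -0.93 against 0.64 over all rows. As every row was selected as changed, this median mainly shows which side held more of the 5 rows. None of the 3 genes carried this term. The higher rows were both glutathione transferases. GSTA, of the alpha class, stood at 61.5 FPKM in immature livers against 166 FPKM in mature ones, 2.69-fold higher, and has near relatives with which it may share reads. GSTO1, of the omega class, stood at 28.7 and 81.1 FPKM, 2.83-fold higher. None of the lower rows is a glutathione transferase or makes glutathione. IDH2, the mitochondrial isocitrate dehydrogenase that makes NADPH, stood at 343 and 139 FPKM, 2.46-fold lower. RRM2, the ribonucleotide reductase subunit of dividing cells, stood at 17.2 and 1.18 FPKM, 14.6-fold lower, the only one past 4-fold. SRM, the spermidine synthase, stood at 12.7 and 6.16 FPKM, 2.06-fold lower.

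Lists of neighbouring redox pathways held 148 gene symbols besides PRDX1, PRDX6 and NQO1, of which 23 were listed, 13 higher and 10 lower. This split is close to that of all rows, 54.9% higher and 45.1% lower, and is no result about these genes. Some symbols are alternative names of the same gene, so list sizes can overstate the number of genes. Under equal medians 10 stayed higher (ALDH1A1, CYBA and SESN1 dropped below 2-fold) and under equal sums 2, CHAC1 and HMOX1. All 10 lower ones stayed lower, which was fixed in advance because both scalings lower the mature values. A gene that is not listed has no value here and cannot be called unchanged. None of the 12 symbols for catalase, the superoxide dismutases, the glutathione peroxidases and selenoprotein P was listed. In the peroxiredoxin and thioredoxin list, 3 of 27 genes were listed, the third being SESN1, a sestrin that in mammals responds to p53, at 37.0 FPKM in immature livers against 81.2 FPKM in mature ones. No other peroxiredoxin, thioredoxin or thioredoxin reductase was.

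Glutathione transferases were listed only as higher, 3 of 21 genes, beside 54.9% higher over all rows. Their median log2 difference of 1.41 was 0.36 under equal sums, where none of them stayed past 2-fold. Besides GSTA and GSTO1 this was the microsomal MGST2, which stood at 0.911 and 3.78 FPKM. For glutathione synthesis, recycling and NADPH supply, 3 of 22 genes were listed, 1 higher and 2 lower, beside 54.9% and 45.1% of all rows. The median of -1.03 is the value of CTH alone, and so few rows give no result about the list. The higher one was CHAC1, which breaks glutathione down, at 4.18 FPKM in immature livers against 104 FPKM in mature ones. This 24.9-fold difference exceeded that of every other listed gene of these redox lists. CTH, which makes cysteine for glutathione, stood at 66.2 and 31.8 FPKM, and IDH2 was the other lower one.

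Of 24 genes on the list for quinone, carbonyl and epoxide detoxification, 7 were listed, 6 lower and 1 higher, NQO1 included. The list is wider than its name, as it also holds POR and AKR1D1, described below by other roles. Its counts are therefore no measure of detoxification as a whole. Among the 6 others, 5 were lower and 1 higher (median -1.30), beside 45.1% lower over all rows. The lower ones included POR, the flavoprotein that passes electrons to microsomal cytochromes P450, at 9.42 FPKM in immature livers against 1.55 FPKM in mature ones, 6.06-fold lower. CRYZ, another quinone reductase, stood at 7.85 and 1.45 FPKM, 5.42-fold lower. AKR1D1, the steroid reductase of bile acid synthesis, came closest to NQO1 in level, at 199 and 69.8 FPKM. CYB5R2 stood at 73.8 and 34.0 FPKM and the aldehyde dehydrogenase ALDH3A2 at 174 and 85.4 FPKM. The higher one was ALDH1A1, a retinal dehydrogenase, at 38.4 and 78.0 FPKM.

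Of the 30 genes of the NRF2 list 6 were listed, 3 higher and 3 lower, and 3 of these 6 were PRDX1, PRDX6 and NQO1 themselves. The median of 0.01 lies midway between PRDX6 and PRDX1, and it turned to -0.18 under equal medians and -1.11 under equal sums. Without these genes 2 were higher and 1 lower, against 54.9% and 45.1% of all rows. NRF2 itself (NFE2L2) and KEAP1 were not listed. HMOX1 was 4.92-fold higher in mature livers, and ABCC1, an exporter of glutathione conjugates, stood at 1.11 and 3.74 FPKM. TKT, the transketolase of the pentose phosphate pathway, was 3.88-fold lower, at 90.5 and 23.3 FPKM.

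Among oxidases that in mammals can release hydrogen peroxide, the substrate of the peroxiredoxins, 7 of 26 symbols were listed. Of these 5 were higher and 2 lower, beside 54.9% higher over all rows. Their median was 1.11, and 0.20 under equal sums, where 0 stayed past 2-fold higher. XDH, which makes uric acid, had the highest level, at 98.9 FPKM in immature livers against 269 FPKM in mature ones. Whether the chicken enzyme releases hydrogen peroxide was not tested. The amine oxidases MAOA and MAOB stood at 4.50 and 12.9 and at 3.50 and 9.08 FPKM. CYBA, a subunit of the phagocyte oxidase, stood at 11.9 and 26.9 FPKM (below 2-fold under equal medians) and AOX1 at 0.429 and 1.76 FPKM. The lower ones were PIPOX and HAO1, peroxisomal oxidases in mammals, at 11.4 and 2.27 and at 34.5 and 16.9 FPKM.

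**Figure D2:**
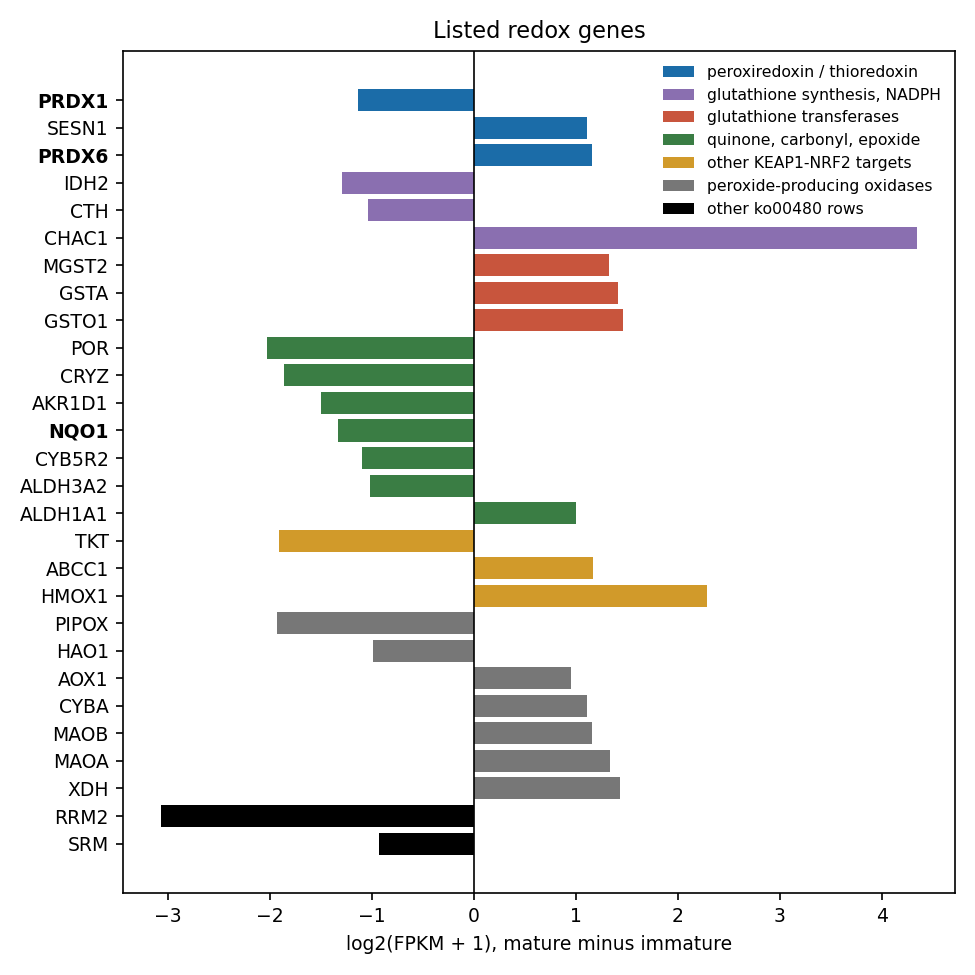
Difference of log2(FPKM + 1), mature minus immature (horizontal axis), for the listed genes of the redox lists, coloured by list, with PRDX1, PRDX6 and NQO1 in bold. The ko00480 rows on none of these lists, RRM2 and SRM, are in black. A gene on more than 1 list is drawn once, under the first. Bars left of 0 were lower in mature livers. Glutathione transferases lie right of 0 and 6 of the 7 genes of the quinone, carbonyl and epoxide list left of it, and CHAC1 has the longest bar.

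Marker genes of other cells differed along with these genes. Their counts are as deposited, beside 54.9% higher and 45.1% lower over all rows. Of 14 macrophage and Kupffer cell markers 8 were listed, all higher, and their summed level was 146 FPKM in immature livers against 932 FPKM in mature ones. Of 15 lymphocyte marker symbols, some of them alternative names of the same gene, 6 were listed, all higher (2.04 and 60.2 FPKM in sum). Of 17 erythroid markers 3 were listed, TFRC, HBE1 and HEMGN, all lower (41.2 and 7.98 FPKM in sum). Most of this sum was TFRC, the transferrin receptor, at 35.7 and 7.33 FPKM. HBE1 was at 3.99 and 0.0909 FPKM and HEMGN at 1.44 and 0.567 FPKM. Of 15 markers of bile duct, endothelial and stellate cells 3 were listed, 1 higher and 2 lower, and none of these was a bile duct marker. LYVE1 was higher, at 7.39 and 17.1 FPKM, while STAB2 was lower, at 7.72 and 3.61 FPKM. COL1A2 was lower as well, at 52.5 and 8.8 FPKM. No listed marker was at 0 in either group. The only one of 12 hepatocyte markers listed was AHSG, a plasma protein of fetal and adult liver, at 2625 and 269 FPKM, so the table cannot be used to check the tissue further. The part of these cells in the levels of PRDX1, PRDX6 and NQO1 was not tested.

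Genes with the most similar pair of levels were sought over the 2 group values, by the distance on log2(FPKM + 1). Nearest to PRDX1 were YBX1, a cold shock domain protein that binds RNA, at 493 and 229 FPKM (distance 0.09), and COX4I1, part of the last complex of the respiratory chain, at 501 and 250 FPKM (0.10). Nearest to NQO1 were SMPD1, the lysosomal sphingomyelinase, at 199 and 77.9 FPKM (0.11), and the tubulin TUBB4B at 207 and 70.0 FPKM (0.24). Nearest to PRDX6 were GAL8, an avian beta-defensin, at 91.0 and 228 FPKM (0.13), and LAMP1, a lysosomal membrane protein, at 102 and 238 FPKM (0.23). With only 2 values per gene, such likeness describes level and direction and no more.

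Positions were compared with the other listed transcripts on the deposited coordinates, counting the bases between loci. NQO1 and NOB1, a ribosome assembly endonuclease gene, lay 422 bases apart on chromosome 11, and both were lower in mature livers: NOB1 stood at 15.4 and 6.98 FPKM. Of the 7 other listed mRNAs within 500 kb of NQO1, 6 were lower, where 45.1% of all rows were, among them the cadherins CDH1 (84.1 and 28.7 FPKM) and CDH3 (4.76 and 1.53 FPKM). PRDX6 lay 245 bases from ENSGALG00000003022, which went the other way, at 41.2 FPKM in immature livers against 15.9 FPKM in mature ones. Of the 9 other mRNAs within 500 kb of PRDX6, 3 were higher and 6 lower. The deposited locus of PRDX6 spans 32831 bases, against 6311 for PRDX1 and 1845 for NQO1.

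For PRDX1 the nearest listed mRNA was ENSGALG00000020700 at 19907 bases, at 2.83 and 0.829 FPKM, and 7 of the 9 within 500 kb were lower, again beside 45.1% of all rows. These counts are a description, with no test. An intergenic lncRNA (TCONS_00062442) lay 66.6 kb from PRDX1 and was lower as well, at 2.38 FPKM in immature livers against 0.845 FPKM in mature ones. The nearest listed lncRNA was 412 kb from NQO1 and 732 kb from PRDX6. Over all mRNA rows the median gap was 87.2 kb to the nearest other listed mRNA and 824 kb to the nearest listed lncRNA. Of all mRNA rows, 6.49% had a listed mRNA as near as NQO1 did, 5.003% as near as PRDX6 did and 29.1% as near as PRDX1 did. For lncRNAs these shares were 33.7, 46.9 and 11.2%.

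**Figure D3:**
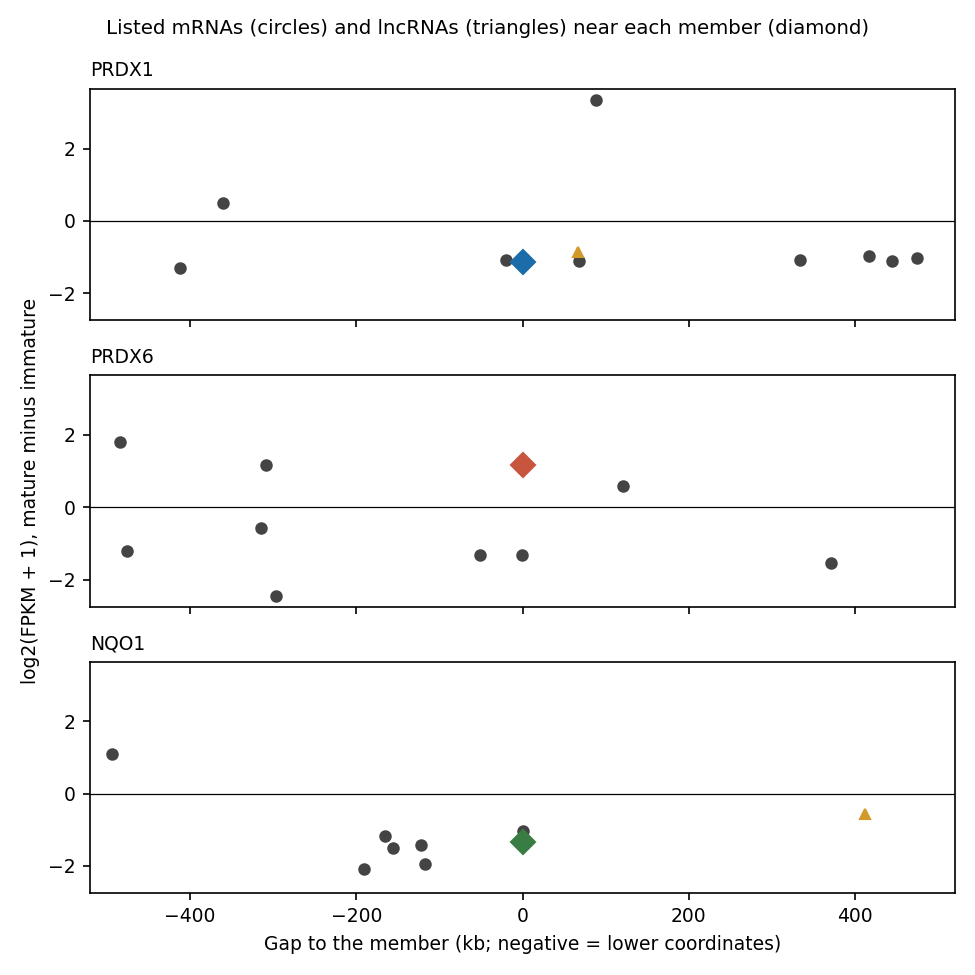
Difference of log2(FPKM + 1), mature minus immature, of the listed mRNAs (circles) and lncRNAs (triangles) within 500 kb of PRDX1, PRDX6 and NQO1 (diamonds), against the gap in kb. Around PRDX1 7 of 9 circles and around NQO1 6 of 7 lie below 0 with the diamond, beside 45.1% of all rows, and the circle next to PRDX6 lies below 0 while its diamond lies above.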

How the data were processed

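The deposited tables hold FPKM that the authors computed for 1480 mRNAs and 622 lncRNAs they had called, 1 value per group of 3 libraries. Aligners and counters listed by the submitters' processing notes are Bowtie2 2.0.6, TopHat, Cuffdiff and Cufflinks, with DESeq and FastQC. The paper's methods describe mapping to Galgal5, then StringTie and Ballgown, while the transcript IDs here are of the Cufflinks kind. The paper's Results also give other numbers of changed mRNAs and lncRNAs. There most changed mRNAs were lower in mature livers, whereas 54.9% of the rows here were higher. The lncRNAs that the paper's Discussion counts as changed do together number 622, and a legend of its supplement names Cufflinks for the assembly. Whether these tables come from the run and build of the paper's methods is not stated. Columns of fold change, direction, p-value and significance hold the authors' own comparison and were not used. Group values carry no counts, so the depth and precision behind each are unknown (the paper's read totals per library were not used here), and no test was run. Ratios of the group FPKM and differences of log2(FPKM + 1), mature minus immature, were computed with pandas 2.3.3 in Python 3.11.15, and a gene was counted at a fold of 2 or more. The code was checked on simulated data. Alternatives were pseudocounts of 0.1 and none, a mean FPKM of at least 1, equal sums, equal medians and a fold of 4. PRDX1, PRDX6 and NQO1 and the gene and marker lists were chosen with earlier results of these data known. Named were these genes, the ko00480 rows, the list genes, the 2 genes nearest in level to each and near loci; the rows sharing an annotation term, SNORA73 and other loci within 500 kb were chosen after their values were seen. Of 49 symbols looked up, 48 were in the RefSeq gene table of GRCg7b, from which no coordinate was taken. A few results are not reported here.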

Additional observations from a re-analysis of the deposited data

How the results depend on the processing

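The pseudocount did not move a difference of PRDX1, PRDX6 or NQO1 by 1.5-fold. Counts used ratios without a pseudocount, so they could not change with it. A mean FPKM of at least 1 left out none of the counted genes, so it could change neither their differences nor their counts. Scaling moved both. With equal sums the log2 differences were -2.25 for PRDX1, 0.039 for PRDX6, -2.43 for NQO1 and -1.84 for the median of the ko00480 rows, and the numbers past 2-fold higher were 0 of the 3 genes, 0 of the ko00480 rows and 2 of the list genes. With equal sums without SNORA73, chosen after seeing the data, they were -1.82, 0.47 and -2.01, and 0, 0 and 5 were higher. With equal medians PRDX6 missed 2-fold, leaving 0 of the 3 genes higher. The median of the NRF2 list turned negative under all of these (-1.11, -0.68 and -0.18). No gene could leave the lower side, because each of these scalings lowers the mature values. At 4-fold, 0 of the 3 genes were higher and 0 lower, 0 and 1 of the ko00480 rows, and 4 and 3 of the list genes. No paired analysis was possible because the tables hold 1 value per group; for the same reason no library could be left out. Depth limits cannot be given from FPKM alone.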
